A study of Mus musculus with 6 samples.

Results

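The genes described here are 9 aldehyde dehydrogenases (Aldh1a1, Aldh1b1, Aldh2, Aldh3a2, Aldh4a1, Aldh6a1, Aldh7a1, Aldh9a1 and Aldh18a1) and Adh5, an alcohol dehydrogenase that clears formaldehyde. They were picked by symbol, all 10 were found among the 16312 genes of the count table, and all 10 passed the filter on low counts, which 14288 genes passed. RNA came from haematopoietic stem cells (HSCs) sorted from the bone marrow of male C57BL/6N mice, 3 of them young (8 to 12 weeks) and 3 old (22 months). The labels name the 2 groups as B6 controls within a parabiosis study, where animals are surgically joined, and do not state the markers used for sorting. The libraries held between 12494557 and 30931680 counts. The label was checked against 12 HSC markers, which were all measured, with the stem cell factor receptor Kit at a mean of 882 ± 52.4 CPM in the young group and 876 ± 44.6 CPM in the old, and the transcription factor Hlf at 1222 ± 227 and 1142 ± 87.7 CPM (SD, n = 3). CPM are counts relative to the library's total after scaling by edgeR's TMM factors.

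Most aldehyde dehydrogenases oxidise reactive aldehydes to acids with NAD or NADP. Some act on aldehydes of outside or metabolic origin (retinaldehyde, acetaldehyde, fatty aldehydes), and others are steps in the metabolism of amino acids. In HSCs, high aldehyde dehydrogenase activity is a trait long used to sort stem and progenitor cells with a fluorescent substrate, and Aldh2 and Adh5 are known to protect blood stem cells from aldehydes that damage DNA.

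Aldh1a1 was more abundant in HSCs of old mice, at 763 ± 29.8 CPM against 367 ± 16.0 CPM in young mice (SD, n = 3), a 2.08-fold difference, and Aldh1b1 was less abundant, at 0.0984 ± 0.170 against 2.49 ± 1.04 CPM. None of the other 8 members passed the test. Aldh2, the second most abundant member, had means of 294 ± 12.9 CPM (young) and 296 ± 12.5 CPM (old). Thus 1 of 10 members rose and 1 fell at an adjusted p of 0.05 (edgeR quasi-likelihood test, adjusted over all genes tested), where 2.45% of all tested genes rose, 1.54% fell and 3.99% were called in all. The member that fell, Aldh1b1, passed the filter only through the group where it was high, so its call is given as a description and nothing is read from its share. The median log2 fold change of the 10 members was −0.04, and that of all tested genes −0.02. At an unadjusted p of 0.05, 2 members were higher (Aldh1a1 and Aldh3a2) and 1 was lower. The unadjusted p of Aldh3a2 (edgeR, 0.0241) was only the 1657th smallest of the 14288 genes tested. The share of all genes at that threshold is not given, so nothing is read from this count. Scaling by library size alone moved the median of all genes to −0.07 and their calls from 350 higher and 220 lower to 310 and 298, with the same counts of called members.

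**Figure D1:**
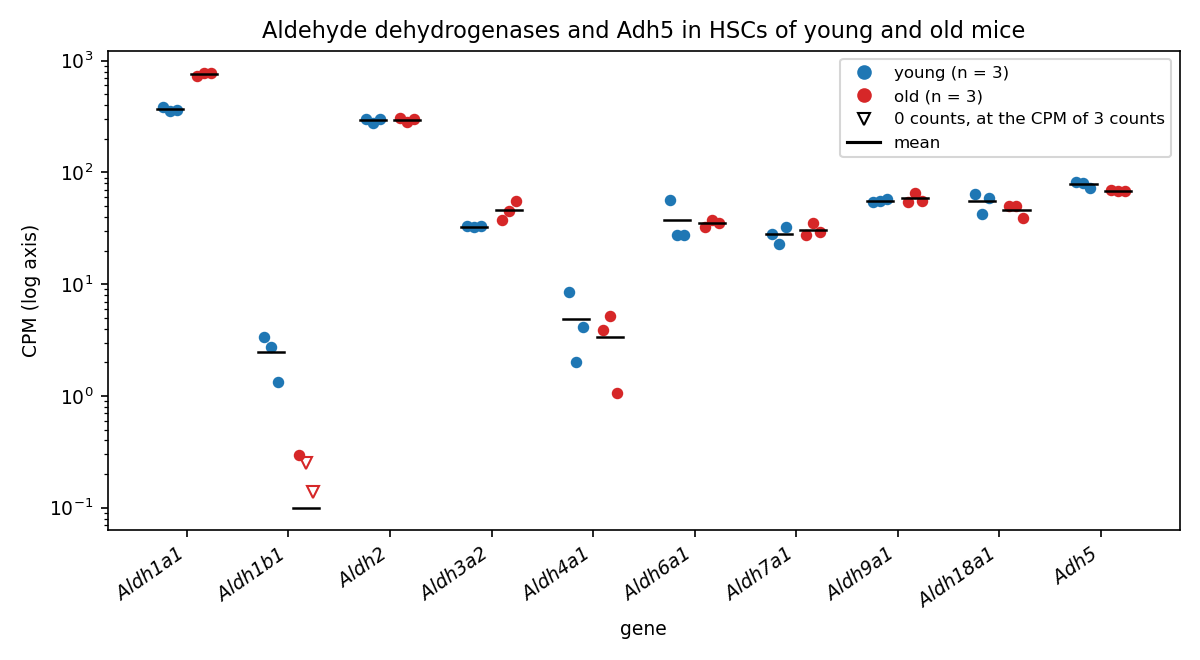
CPM of the 10 members (log axis) in each of the 3 young (blue) and 3 old (red) libraries, with group means as bars and libraries without a count drawn as triangles at the CPM that 3 counts would give. Aldh1a1 lies between 357 and 385 CPM in young and between 729 and 783 CPM in old mice, whereas the groups of Aldh2 overlap.

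Aldh1a1 encodes the cytosolic enzyme that oxidises retinaldehyde to retinoic acid, the ligand of the retinoic acid receptors. The gene lies on chromosome 19 from 20492715 to 20643465 of GRCm38. Next to it, from 20692953 to 20727562, lies Aldh1a7, a gene of closely similar sequence. Because reads of 50 bases could be assigned to either gene, their coding sequences, read as the longest open reading frame in the GENCODE transcripts, were compared. Both are 1506 bases long and differ at 126 bases (91.6% identity), and 151 of the 1457 windows of 50 bases (10.4%) are identical. The window with the most differences is shown 5′ to 3′, bases 876 to 925 counted from the start codon, with the 14 bases at which the genes differ in capitals; it holds codons around the active-site cysteine.
Aldh1a1: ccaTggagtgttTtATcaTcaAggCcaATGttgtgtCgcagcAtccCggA
Aldh1a7: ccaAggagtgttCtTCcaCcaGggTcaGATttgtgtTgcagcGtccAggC

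The RefSeq promoter table (GRCm38.p6) lists 2 starts for Aldh1a1, and the 250 bases before each are shown 5′ to 3′ on the plus strand, because Aldh1a1 is the member with the clearest change. The counts are per gene and do not separate the starts. Capitals mark matches, on either strand, to the CCAAT box (its own letters), the TATA box as TATAAA, the AP-1 site as TGACTCA, the nuclear receptor half-site as AGGTCA and the octamer as ATGCAAAT.
Aldh1a1 upstream start, chr19:20492333-20492582: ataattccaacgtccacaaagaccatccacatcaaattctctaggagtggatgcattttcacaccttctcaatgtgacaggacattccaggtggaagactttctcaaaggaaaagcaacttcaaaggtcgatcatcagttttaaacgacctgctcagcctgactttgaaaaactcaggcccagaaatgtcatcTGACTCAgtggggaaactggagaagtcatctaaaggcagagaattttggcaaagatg
Aldh1a1 downstream start, chr19:20601718-20601967: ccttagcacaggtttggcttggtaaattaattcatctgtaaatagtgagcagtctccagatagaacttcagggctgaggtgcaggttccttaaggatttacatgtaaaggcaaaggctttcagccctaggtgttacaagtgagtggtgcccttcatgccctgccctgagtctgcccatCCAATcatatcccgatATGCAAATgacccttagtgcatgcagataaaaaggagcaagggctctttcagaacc
The upstream start has the AP-1 word TGACTCA beginning 57 bases before it, and 4.46% of 32851 promoter windows of this length hold that word on either strand. The downstream start has CCAAT beginning 72 bases and the octamer ATGCAAAT 56 bases before it, words held by 33.8% and 1.6% of the windows. No 2 of these matches overlap. Of the 8 members in the table, 5 have CCAAT in at least 1 window.

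Aldh1a1 stood at 385, 357 and 358 CPM in young replicates 1, 2 and 3 and at 729, 783 and 777 CPM in old replicates 1, 2 and 3. The groups were thus far apart, with 344 CPM between the lowest old and the highest young library, and the SD was 4.37% of the mean in young and 3.91% in old mice. The log2 fold change was 1.06 ± 0.09 SE (95% interval 0.85 to 1.26, edgeR adjusted p = 8.97e-05). Its unadjusted p was the 20th smallest of the 14288. Of the 350 genes called higher in old mice, 199 had a larger fold change than Aldh1a1, but 14 had a larger difference in CPM. The fold change ran from 1.00 to 1.10 on the log2 scale over 14 alternative analyses, and Aldh1a1 was called in all of them (adjusted p between 1.36e-20 and 0.0017). The authors' deposited table, which gives young over old, has −1.03 for Aldh1a1 on the log2 scale (adjusted p = 6.15e-15).

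Aldh1a7 was not higher in old mice. It stood at 3.98, 0.902 and 2.63 CPM in young and 0.464, 0.503 and 0.412 CPM in old replicates 1 to 3. Every old library was below every young one, but the change did not pass (log2 fold change −2.44 ± 0.70 SE, edgeR adjusted p = 0.082). Aldh1a7 passed the filter on low counts only through the young libraries, where it was high, so nothing is read from the lack of overlap. With the counts of Aldh1a1 and Aldh1a7 joined, the log2 fold change of Aldh1a1 was 1.05 (edgeR adjusted p = 0.000103).

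In bulk libraries, a change in the share of cells that hold a transcript and a change in the amount per cell cannot be told apart, and marker genes of other cells differed between the groups. Of 6 tested multipotent and lymphoid progenitor markers 3 fell, with a summed level of 183 to 205 CPM in young and 73.9 to 85.8 CPM in old libraries. Of 10 cell division markers 5 fell, or 8 with DESeq2 (2652 to 3132 and 1076 to 1656 CPM). Of 9 megakaryocyte and platelet markers 2 rose, Selp (25.5 to 228 CPM) and Vwf (38.3 to 206 CPM), which carried the sum (110 to 169 and 418 to 591 CPM). The median log2 fold change of these 9 was 0.01, and Pf4 was at 31.6 and 19.96 CPM with every old library below every young one (edgeR adjusted p = 0.0969), where DESeq2 called 1 marker lower. Of 12 macrophage and monocyte markers 7 fell, although their summed levels overlapped (195 to 220 and 188 to 218 CPM). Adgre1, C1qb, Cd5l and Fcna had no count in any old library. They passed the filter on low counts only through the young libraries, where they were high, so nothing is read from the count of falls. The 7 calls became 4 without old replicate 1, 3 without old replicate 3 and 0 of 3 tested at 1 CPM in all libraries. Of these 3, 1 was higher and 1 lower at an unadjusted p of 0.05 (edgeR). All 4 tested neutrophil markers fell (15.5 to 218 and 3.44 to 8.29 CPM), but none with limma-voom (1 at an unadjusted p of 0.05) or, in edgeR, without old replicate 1 or 2 (6 of 7 tested at an unadjusted p of 0.05 in each), and 1 without young replicate 1 or old replicate 3. Of 10 erythroid markers 3 fell (832 to 1246 and 769 to 935 CPM), but none with limma-voom (4 at an unadjusted p of 0.05) and 1 without young replicate 1 or any 1 old library, or at 1 CPM in all libraries. Of the endothelial markers 3 of 7 rose, although their summed levels overlapped (149 to 229 and 228 to 277 CPM). The median log2 fold change of these 7 was 0.15. The 3 calls became 2 without any 1 young library, without old replicate 2 or 3 and at 1 CPM in all libraries (edgeR). The summed HSC markers overlapped, at 3971 to 4659 CPM in young and 4231 to 4619 CPM in old libraries, and 2 of 12 rose (4 with DESeq2), Procr (1.94-fold) and Slamf1 (2.77-fold). None of 3 tested B and T cell markers was called. Of all tested genes 2.45% rose and 1.54% fell. The part of these marker differences in the levels of Aldh1a1 and the other members was not tested.

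The steps around retinaldehyde were followed with 25 retinoid genes, of which 17 were tested, 1 rose and none fell (edgeR; 3 higher and none lower at an unadjusted p of 0.05, 1 higher with DESeq2 and 2 with limma-voom). Their median log2 fold change was −0.10. The gene that rose was Rdh10, which encodes the retinol dehydrogenase that makes retinaldehyde, the substrate of Aldh1a1. It stood at 15.1, 15.7 and 10.1 CPM in young and 36.9, 36.8 and 39.8 CPM in old replicates 1 to 3, without overlap. The log2 fold change was 1.48 ± 0.23 SE (edgeR adjusted p = 0.00342). Cyp26b1, which breaks down retinoic acid, was at 40.5, 11.5 and 70.4 CPM in young and 96.8, 128 and 144 CPM in old mice, and did not pass (log2 fold change 1.59 ± 0.45 SE, edgeR adjusted p = 0.0791). The young libraries thus differed widely among themselves in this gene. Rarb, a retinoic acid receptor gene that responds to its own ligand, had 10.96 ± 6.53 and 19.97 ± 1.18 CPM (edgeR adjusted p = 0.286), and Rara 12.5 ± 2.90 and 9.92 ± 2.72 CPM.

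Aldh2 encodes the mitochondrial enzyme that oxidises acetaldehyde. The gene lies on chromosome 5 from 121566027 to 121593824. It stood at 300.3, 280 and 304 CPM in young and 306, 282 and 301 CPM in old replicates 1 to 3, so that the groups covered nearly the same range. The log2 fold change was 0.01 ± 0.10 SE, with a 95% interval of −0.21 to 0.23 (edgeR adjusted p = 0.981). The SD was 4.38% and 4.22% of the mean in young and old mice, so that the interval for Aldh2 did not reach the change measured for Aldh1a1.

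Aldh1b1 encodes a second mitochondrial enzyme, close in sequence to Aldh2 and able to use acetaldehyde and retinaldehyde. It lies on chromosome 4 from 45799022 to 45804604. It had 71, 70 and 44 counts in young replicates 1, 2 and 3 and 7, 0 and 0 counts in old replicates 1, 2 and 3, which gave 3.37, 2.74 and 1.35 CPM in young mice and 0.295 CPM in old replicate 1. A count of 0 allows up to 0.252 CPM in old replicate 2 and 0.137 CPM in old replicate 3, limits that cover counting error only. The fitted log2 fold change was −4.40 ± 1.05 SE (edgeR adjusted p = 0.0396), a value that rests on few counts. Aldh1b1 passed the filter on low counts only through the young libraries, and it was not tested where 1 CPM was asked of all 6 libraries. The call was lost in 5 of the 6 fits with a library left out, namely without any young library (adjusted p = 0.094, 0.0966 and 0.053 for replicates 1, 2 and 3) and without old replicate 2 or 3 (0.136 and 0.146), and without a filter (0.0613). All old libraries were below all young ones. The authors' deposited table, which gives young over old, has 1.00 for Aldh1b1 on the log2 scale with an error of 0.307 (adjusted p = 0.00217). The DESeq2 fit made here gave −4.51 ± 1.15 SE for old over young. The deposited size and error are thus unlike the fitted ones, and only the direction, lower in old mice, is compared.

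Adh5 encodes the glutathione-dependent formaldehyde dehydrogenase and lies on chromosome 3 from 138443093 to 138455499. It stood at 82.9, 80.0 and 72.4 CPM in young and 69.9, 68.4 and 67.7 CPM in old replicates 1 to 3. The groups did not overlap, but the change was small and did not pass (log2 fold change −0.19 ± 0.13 SE, 95% interval −0.48 to 0.10, edgeR adjusted p = 0.551). Including Adh5, 4 of 10 members did not overlap between groups, 2 in each direction. Of all tested genes 22.4% did not overlap, 11.6% in the higher and 10.8% in the lower direction. Among the lower members was Aldh1b1, which passed the filter on low counts only through the young libraries, so nothing is read from this share.

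The genes around formaldehyde, covering glutathione and the folate cycle that carries the same carbon unit, gave 1 rise and 2 falls among 18 tested, with a median log2 fold change of −0.39 (edgeR; DESeq2 gave 1 rise and 5 falls). Esd and Gsr, which act next to Adh5, did not pass. Esd, the esterase that completes the formaldehyde reaction, had a mean of 72.0 ± 18.5 CPM in the young and 80.2 ± 5.00 CPM in the old group. Gsr, which regenerates glutathione, was at 50.2 ± 10.7 and 61.1 ± 8.88 CPM. Tyms, thymidylate synthase, which makes a building block of DNA, fell from 82.6 ± 6.03 to 46.7 ± 3.49 CPM (log2 fold change −0.82 ± 0.15 SE, edgeR adjusted p = 0.00797). This fall stood beside the lower cell division markers given above. Gcsh, a carrier protein of the glycine cleavage system, rose from 42.5 ± 1.86 to 66.5 ± 2.66 CPM (0.65 ± 0.15 SE, edgeR adjusted p = 0.032) and lost the call without young replicate 2 or 3 and without any 1 old library (adjusted p between 0.0678 and 0.137).

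**Figure D2:**
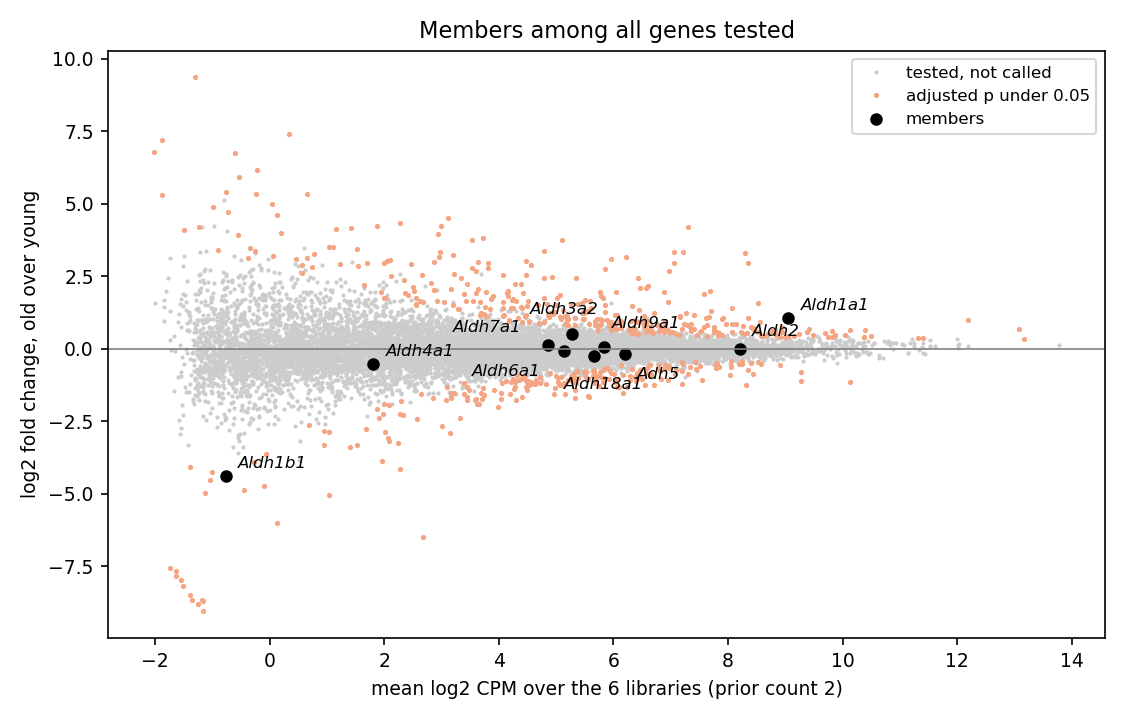
Log2 fold change (old over young) against mean log2 CPM for all 14288 tested genes, with called genes in orange and the 10 members in black. Aldh1a1 stands above the other members at a high level, Aldh1b1 lies at the low end of expression, and the other 8 lie between −0.54 and 0.49.

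Aldh3a2 encodes the membrane-bound enzyme that oxidises long-chain fatty aldehydes, including those from sphingolipid breakdown. It lies on chromosome 11 from 61223417 to 61267464. It stood at 32.9, 32.2 and 33.3 CPM in young replicates 1 to 3, within 1.57% (SD as a share of the mean), and at 37.5, 44.8 and 56.1 CPM in old replicates 1 to 3, where the SD was 20.3% of the mean. All old libraries were higher, by at least 4.24 CPM, but the change did not pass (log2 fold change 0.49 ± 0.19 SE, 95% interval 0.08 to 0.91, edgeR adjusted p = 0.208). It was not called in any of the 14 alternatives, where the log2 fold change ran from 0.34 to 0.63.

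Its neighbour Aldh3a1, which is no member, lies on chromosome 11 from 61207537 to 61218421 and encodes an aldehyde dehydrogenase best known from cornea and stomach. It had 0, 4 and 1 counts in young and 18, 27 and 67 counts in old replicates 1, 2 and 3. These are 0, 0.157 and 0.0306 CPM and 0.759, 2.27 and 3.07 CPM, so that all old libraries were higher at a low level. It rose by a fitted log2 fold change of 4.89 ± 1.01 SE (edgeR adjusted p = 0.0189), a value resting on 5 young counts in all. Aldh3a1 passed the filter only through the old libraries, where it was high, and was not tested at 1 CPM in all libraries or in libraries thinned to the smallest total, and the call was lost without young replicate 1 or 3 and without old replicate 2 or 3 (adjusted p between 0.0542 and 0.115). No word of 50 bases is shared between transcripts of Aldh3a1 or Aldh3a2 and those of any other gene of the annotation.

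Of the 12 further aldehyde dehydrogenase genes looked up, 8 were in the table and 7 were tested, of which Aldh3a1 rose and none fell. Aldh5a1, which oxidises succinic semialdehyde, stood at 18.2, 28.3 and 12.4 CPM in young and 27.5, 52.6 and 15.7 CPM in old mice (edgeR adjusted p = 0.445), and the groups overlapped. Aldh1l1, the dehydrogenase of the folate formyl group, had a log2 fold change of 0.48 ± 0.34 SE, Aldh16a1 −0.03 ± 0.28 and Aldh1a3, another retinaldehyde dehydrogenase, −0.48 ± 0.62. Aldh8a1 had −0.15 ± 0.79 SE. Aldh3b1, with 3, 11 and 2 counts in young and 9, 4 and 1 counts in old libraries, was not tested.

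Among the alcohol dehydrogenases, Adhfe1 was tested and had 0.190, 0.0784 and 0.673 CPM in young and 1.18, 2.10 and 1.47 CPM in old replicates 1 to 3. The groups did not overlap, and the change did not pass (log2 fold change 2.27 ± 0.80 SE, edgeR adjusted p = 0.164). Adhfe1 passed the filter on low counts only through the old libraries, where it was high, so nothing is read from the lack of overlap. Adh1 had 0, 17 and 2 counts in young and 6, 0 and 0 counts in old libraries and was not tested. Among 20 tested genes that clear carbonyls in other ways (aldo-keto reductases, carbonyl reductases, glyoxalases and glutathione transferases), none was called in either direction by edgeR, 1 was higher and 1 lower at an unadjusted p of 0.05, and DESeq2 called 1 higher and 1 lower. The median log2 fold change was −0.00. Ptgr1 had 7.72 ± 0.919 and 2.88 ± 0.114 CPM (edgeR adjusted p = 0.0615) and Gstm1 113 ± 16.2 and 161 ± 23.6 CPM (edgeR adjusted p = 0.0869). In the authors' deposited table the adjusted p was 0.00485 for Ptgr1 and 0.0381 for Gstm1. Ptgr2 (0.0197) and Cbr2 (0.0457) were also under 0.05 there.

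**Figure D3:**
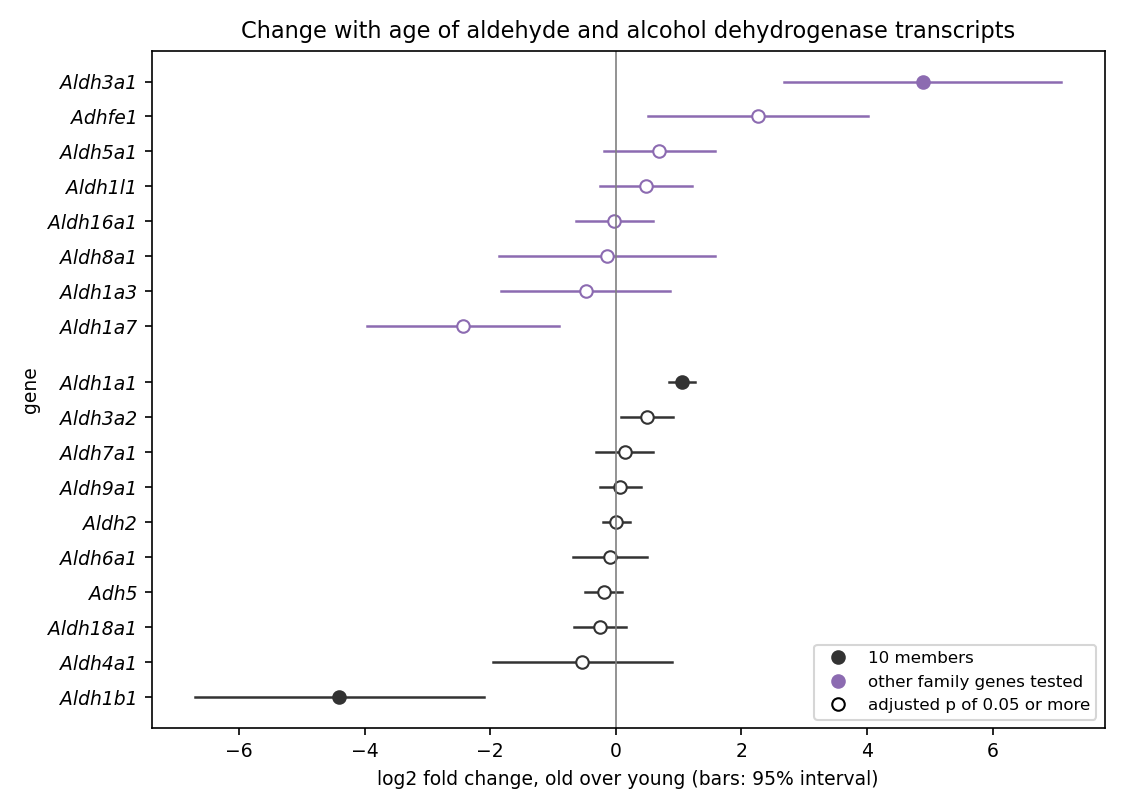
Log2 fold change (old over young) with 95% intervals for the 10 members (black) and the 8 other family genes tested (purple), filled where the adjusted p is under 0.05. Aldh1a1 and Aldh1b1 are filled among the members and Aldh3a1 among the others, and the intervals of the low genes are wide.

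The enzymes of proline metabolism are Aldh18a1, which makes the proline precursor pyrroline-5-carboxylate from glutamate, and Aldh4a1, which oxidises it back to glutamate in mitochondria. Aldh18a1, on chromosome 19 from 40550257 to 40588463, stood at 64.4, 42.7 and 59.1 CPM in young and 50.4, 49.9 and 39.3 CPM in old replicates 1 to 3. The groups overlapped, with a log2 fold change of −0.25 ± 0.19 SE (95% interval −0.67 to 0.17, edgeR adjusted p = 0.592). Aldh4a1, on chromosome 4 from 139622866 to 139649690, stood at 8.49, 2.0 and 4.13 CPM in young and 3.88, 5.20 and 1.05 CPM in old mice. Its libraries varied more than those of the more abundant members, with an SD of 67.9% and 62.7% of the mean. The log2 fold change was −0.54 ± 0.65 SE (95% interval −1.96 to 0.89, edgeR adjusted p = 0.761) and turned to 0.13 without young replicate 1. Moreover, 30.0% of the words of 50 bases in Aldh4a1 transcripts also occur in those of Gm21969, a gene that overlaps it on the same strand, so that its counts are uncertain.

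Of 13 tested proline and glutamate genes 1 rose and none fell, with a median log2 fold change of 0.11 (edgeR; 3 higher and 1 lower at an unadjusted p of 0.05). This was Glul, glutamine synthetase, at 250.2, 318 and 261 CPM in young and 396, 452 and 516 CPM in old replicates 1 to 3 (log2 fold change 0.72 ± 0.13 SE, edgeR adjusted p = 0.00898), and its adjusted p was 0.0619 without old replicate 3. Prodh, which feeds Aldh4a1, had 13.5 ± 3.59 and 20.9 ± 2.30 CPM (edgeR adjusted p = 0.253). Pycr1, the last step of proline synthesis after Aldh18a1, had 3.21 ± 0.826 and 3.42 ± 0.591 CPM.

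Aldh6a1 encodes the mitochondrial methylmalonate semialdehyde dehydrogenase of valine breakdown and lies on chromosome 12 from 84430717 to 84451004. It stood at 56.8, 27.7 and 27.6 CPM in young and 32.4, 37.4 and 35.5 CPM in old replicates 1 to 3. Young replicate 1 was thus well above all other libraries, and all old libraries lay above the other two young ones. The log2 fold change was −0.09 ± 0.27 SE (95% interval −0.68 to 0.50, edgeR adjusted p = 0.917), and without young replicate 1 it was 0.34 ± 0.19 SE (edgeR adjusted p = 0.407). Young replicate 1 also had the highest summed neutrophil markers (218 CPM against 15.5 and 42.4 in young replicates 2 and 3) and erythroid markers (1246 against 881 and 832 CPM), whose part in the level of Aldh6a1 was not tested. Aldh6a1 overlaps Bbof1 on the other strand. Of 20 tested genes of branched-chain amino acid breakdown none was called by edgeR or limma-voom, 1 was higher and 1 lower at an unadjusted p of 0.05, and DESeq2 called 1 higher. Among them Hsd17b10 had 27.9 ± 1.22 and 43.4 ± 5.48 CPM (edgeR adjusted p = 0.0799), and Bckdk, the kinase that restrains the pathway, 36.2 ± 3.26 and 25.8 ± 2.93 CPM (edgeR adjusted p = 0.214). The authors' deposited table has an adjusted p of 0.0189 for Hsd17b10 and 0.961 for Bckdk.

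Aldh7a1 encodes antiquitin, which acts in lysine breakdown, and lies on chromosome 18 from 56509687 to 56572951, overlapping Phax on the other strand. It stood at 28.1, 23.1 and 32.5 CPM in young and 27.6, 35.5 and 29.3 CPM in old replicates 1 to 3, with overlapping groups (log2 fold change 0.14 ± 0.21 SE, 95% interval −0.32 to 0.60, edgeR adjusted p = 0.808). Aldh9a1, on chromosome 1 from 167349991 to 167368532, encodes the enzyme for betaine aldehyde and a step of carnitine synthesis. It stood at 54.0, 55.0 and 57.7 CPM in young and 54.8, 64.9 and 56.0 CPM in old replicates 1 to 3 (log2 fold change 0.07 ± 0.15 SE, 95% interval −0.25 to 0.40, edgeR adjusted p = 0.867). The young libraries of Aldh9a1 were close together and the highest value was in old replicate 2. Of 13 listed lysine, choline and carnitine genes 5 were tested, and none was called by edgeR, DESeq2 or limma-voom or at an unadjusted p of 0.05. Slc22a5, the carnitine transporter, had 14.0 ± 3.78 and 18.9 ± 2.87 CPM (edgeR adjusted p = 0.475), and Sardh had 1.70 ± 1.24 and 0.854 ± 0.104 CPM (edgeR adjusted p = 0.60).

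**Figure D4:**
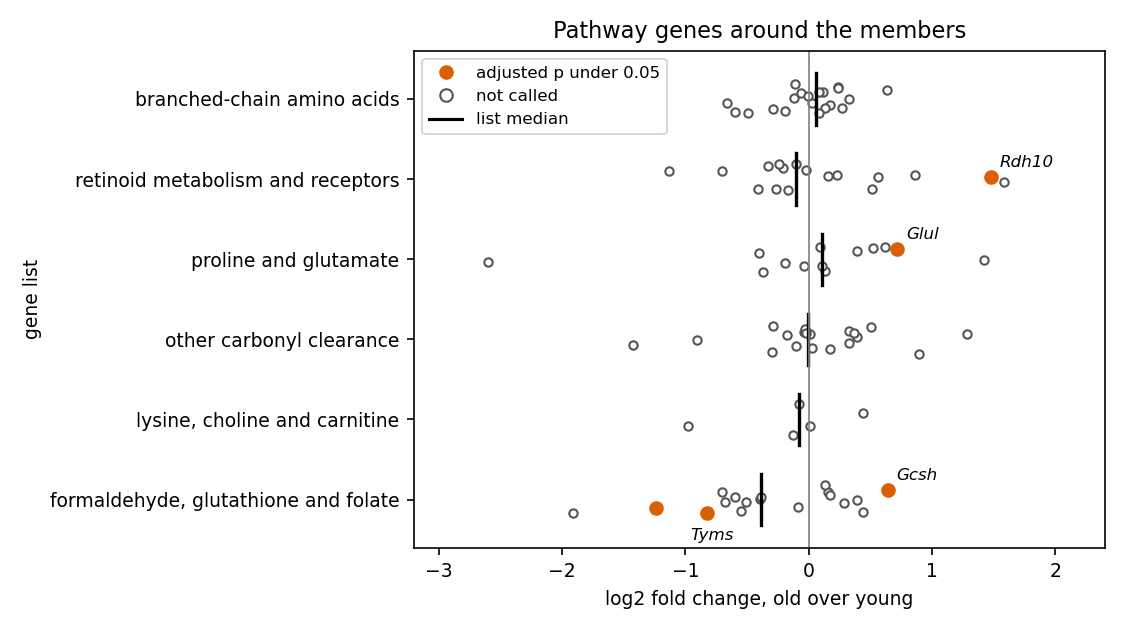
Log2 fold change (old over young) of the tested genes in 6 lists of genes around the members, 1 point per gene, called genes filled and the 4 described in the text named, and list medians as bars. Of 93 list entries 5 are called, 3 higher (Rdh10, Glul and Gcsh) and 2 lower (Tyms is named), which is 5.38% beside 3.99% of all tested genes.

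Levels of different members were compared as CPM per kilobase of the gene's joined exons. In young mice the order was led by Aldh1a1 (74.3 ± 3.24) and Aldh2 (57.4 ± 2.52), above 97.2% and 96.2% of tested genes on the same scale. Aldh9a1 (16.4 ± 0.552), Adh5 (14.5 ± 1.00) and Aldh18a1 (13.6 ± 2.77) followed, of which Adh5 and Aldh18a1 overlapped over libraries. Aldh6a1 (6.46 ± 2.91), Aldh3a2 (5.83 ± 0.0919) and Aldh7a1 (5.38 ± 0.912) overlapped as neighbours, as did Aldh1b1 (1.08 ± 0.451) and Aldh4a1 (0.993 ± 0.674). In old mice Aldh1a1 reached 154.6 ± 6.04 CPM per kilobase while Aldh2 stood at 57.8 ± 2.44, Aldh3a2 came before Aldh6a1, and Aldh1b1 came last at 0.0428 ± 0.0742. With the longest transcript as the length, Aldh9a1 and Adh5 exchanged places in young mice, as did Aldh1b1 and Aldh4a1, and the level of Aldh1a1 there was 155.6.

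The summed level of the 10 members was 1016, 902 and 950.0 CPM in young and 1311, 1372 and 1363 CPM in old replicates 1 to 3. All old libraries were higher, by 392 CPM on average (exact permutation p = 0.1, two-sided, the smallest that 20 arrangements can give). Without Aldh1a1, the sum of the other 9 was 589 ± 43.1 CPM in the young group and 585 ± 2.82 CPM in the old (SD, n = 3), with an exact permutation p of 0.7. Aldh1a1 took 37.9%, 39.6% and 37.7% of the sum in young and 55.6%, 57.1% and 57.0% in old replicates 1 to 3 (exact permutation p = 0.1, two-sided). The difference in the sum was thus about the size of the difference in Aldh1a1.

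**Figure D5:**
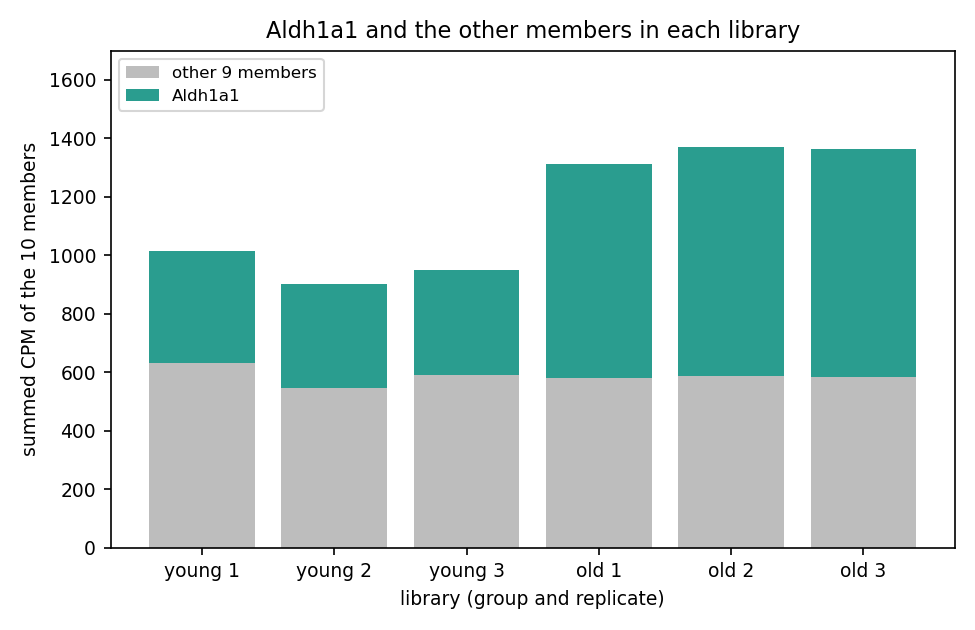
Summed CPM of the 10 members in each library, with Aldh1a1 in green on top of the other 9 members in grey. The grey part lies between 545 and 631 CPM in all 6 libraries, and the green part is larger in each old library.

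The 5 genes outside the members whose profile over the 6 libraries was nearest to that of Aldh1a1, by the root mean square distance of centred log2 CPM, were Pim1 (0.0795), Prcp (0.0815), Pam (0.0877), Taf7 (0.0904) and Etfbkmt (0.099), where the median distance of all tested genes was 0.623. Pim1, a serine/threonine kinase, stood at 45.1, 42.9 and 46.7 CPM in young and 100.5, 103 and 97.6 CPM in old replicates 1 to 3. Prcp, a lysosomal carboxypeptidase, rose from 135 to 285 CPM, and Pam, which amidates peptides, from 56.9 to 109.9 CPM. All 5 were called higher in old mice (edgeR adjusted p between 0.000314 and 0.027), and the distance is taken over the same 6 libraries as that contrast.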

How the data were processed

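Sorted HSCs of 3 young and 3 old mice gave RNA that was extracted with a small-sample kit and read from low-input libraries (single-end, 50 bases), per the labels' protocols. Tools named in the submitters' processing notes are DESeq2, Salmon, FastQC and MultiQC, with GRCm38 as build, and no versions or roles. The deposited table held estimated counts as whole numbers. In their own comparison the authors deposited a normalised signal per gene, a log2 fold change with its error, a test score and a p-value with its adjusted p-value. All 570 genes called here have the opposite sign there, so its direction is young over old. Identifiers were matched without version to GENCODE M21 (GRCm38), which gave a symbol for 16301 genes.

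The counts as deposited were tested in R 4.3.3 by edgeR 4.0.16: default filter (minimum count 10, minimum total 15), TMM factors between 0.955 and 1.06, quasi-likelihood F test of the group term, Benjamini-Hochberg adjustment over 14288 genes, threshold 0.05. Log2 CPM used a prior count of 2. SE is the log2 fold change over the root of F, and 95% intervals use the moderated degrees of freedom. Alternatives used limma 3.58.1 (limma-voom), DESeq2 1.42.0, other scalings and filters, and each library left out. The fit was tested on simulated counts. It called 47 of 107 simulated 2-fold changes (43.9%) and 77 of 93 simulated 4-fold changes (82.8%), with 10 false calls. Many 2-fold changes were thus missed. Words of 50 bases were compared over GENCODE transcripts.

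Replicates are called biological by the series design, and p-values set the difference between groups against the spread between these samples. Replicate numbers follow sample order and are only names. Title and description of young replicate 2 disagree on its library number, and the title was used to find its column. The old libraries carry consecutive numbers (28, 29 and 30) and the young do not (1, 5 and 24), so a step that followed them cannot be told apart from age. The members, the lists and the rule for named genes were chosen with earlier results of these data known. The rule took all members, all family genes with a count, the called genes of each pathway list or else the 2 with the smallest p, and the 5 genes nearest to Aldh1a1. Cyp26b1, Rarb, Rara, Esd, Gsr, Prodh and Pycr1 fall outside it and were chosen for their step in the pathway after their values were seen. Some genes counted in the lists are not reported here by name.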

Additional observations from a re-analysis of the deposited data

How the results depend on the processing

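The call of Aldh1a1 held in all 14 alternatives, and no member other than Aldh1a1 and Aldh1b1 was called in any of them. Joining the counts of Aldh1a1 and Aldh1a7 and thinning libraries to 12494557 counts were chosen after seeing the data. Aldh1b1 supplied the 1 lower member. It was not tested at 1 CPM in all libraries and was not called without a filter (0 lower members in both, with 0 and 1 at an unadjusted p of 0.05 in edgeR), and with a library left out the number of lower members ran from 0 to 1. DESeq2 and limma-voom each called it.

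Family and pathway genes called lower numbered 2, but 4 with library size alone, 5 at 1 CPM in all libraries and 6 with DESeq2, and with a library left out between 1 and 3, with 1 to 5 higher. Over all genes DESeq2 called 617 higher and 488 lower, and with a library left out 166 to 308 were higher and 79 to 167 lower, against 350 and 220.

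Signs turned only in genes that were not called. Aldh2 had −0.046 with library size alone and −0.027 to 0.047 with a library left out (−0.01 without old replicate 1), and Aldh6a1 0.031 with limma-voom and −0.27 to 0.34. With a library left out, log2 fold changes ran from −0.97 to 0.13 for Aldh4a1, −0.00042 to 0.13 for Aldh9a1, −0.83 to 0.10 for Aldh1a3, −1.18 to 0.27 for Aldh8a1 (0.22 and 0.13 without old replicates 2 and 3) and −0.17 to 0.13 for Aldh16a1 (0.07 without old replicate 1). The difference of the summed level, 392 CPM, was −3.87 CPM without Aldh1a1, 349 CPM with library size alone and 365 to 423 CPM with a library left out. No paired analysis was possible because the labels give the groups no shared replicate numbers. For the low members (Aldh1b1, Aldh4a1) and family genes near 1 CPM, depth limits what can be seen.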
